A study of Homo sapiens with 4 samples.

Results

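The 33 genes described here are direct transcriptional targets of p53, listed by symbol and taken as given, out of 26506 gene symbols in each table. All 33 were found in both tables. The data are RNA sequencing of HeyC2 and SKOV3, both human ovarian cancer lines, with 1 control library per line (cells that received the empty plasmid) and 1 TET1 library per line (cells that received pCMV6/TET1, a vector that expresses the DNA demethylase TET1 from a viral promoter). Lipofection used 3 μg of plasmid, and all 4 cultures were then kept in medium with 400 μg/ml Geneticin. The labels do not say whether a culture was 1 clone or a selected pool. With 1 library per condition, no difference below has a replicate check, and no p-value was computed.

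The transcription factor p53 is stabilised by DNA damage and other stress, binds pairs of short DNA motifs near its targets and raises their transcription. Its targets halt the cell cycle (CDKN1A, which encodes p21), trigger apoptosis through mitochondria (BAX, BBC3) or death receptors (FAS, TNFRSF10B), repair DNA (XPC, DDB2) and feed back on p53 itself (MDM2, which marks p53 for degradation).

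The values are FPKM, fragments per kilobase of transcript scaled to the size of the library, so levels of different genes can be compared. In both TET1 libraries the deposited values carry a library-wide factor, 3.23 in HeyC2 and 1.35 in SKOV3, that makes GAPDH equal between TET1 and control. The TET1 levels printed here were divided by this factor. Changes were computed on the deposited values as log2((TET1 + 1)/(control + 1)) over genes with a mean of at least 1 FPKM, and the median of all genes, 1.61 in HeyC2 and 0.59 in SKOV3, was subtracted. A relative log2 change of 0 thus marks a gene that moved like the typical gene of its line. Estimated depth ranged from 6.58 to 7.42 M fragments per library. TET1 rose from 0.20 to 0.52 FPKM in HeyC2 and from 0.43 to 1.80 FPKM in SKOV3. Only the SKOV3 TET1 value was above 1 FPKM, so the rise in HeyC2 was between low values. ERBB2, which is amplified in SKOV3, was at 1282 and 1464 FPKM in the SKOV3 libraries and at 20.1 and 23.8 FPKM in those of HeyC2. The epithelial keratins KRT8 and KRT18 and the Müllerian factor PAX8 were at 74.6 FPKM or more in all 4 libraries, whereas MUC16 was at 0.05 FPKM or less.

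To show what p53 recognises near these genes, hg19 (GRCh37) sequence within 2500 bases on each side of the start of the canonical GENCODE transcript was searched for the p53 response element, a pair of adjoining decamers. Each decamer was 3 purines, C, 2 bases that are A or T, G and 3 pyrimidines. Both cores had to be intact, and up to 2 mismatches were allowed elsewhere. The element reads alike on both strands, and matches could overlap. It was present at 12 of the 33 genes (36.4%) and at 409 of 18137 protein-coding genes (2.26%). Coordinates were listed for 10 of the 12. A perfect match was found at 2 of the 33 and at 10 of all genes. The 6 elements below belong to genes whose levels are described next and are printed 5′ to 3′ on the strand of the gene, with both cores in capitals. Negative distances lie upstream of the canonical start. The gene positions printed below span all transcripts of a gene, so the element of GDF15 lies inside its span. That of CDKN1A lies across the edge of its span.

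CDKN1A, -2256 bases from the start, chr6:36644226-36644245, plus strand: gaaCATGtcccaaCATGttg
PLK2, -2198 bases from the start, chr5:57758101-57758120, minus strand: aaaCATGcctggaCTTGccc
ZMAT3, intron 1, chr3:178787976-178787995, minus strand: aaaCAAGtccagaCATGcct
GADD45A, intron 3, chr1:68152458-68152477, plus strand: gaaCATGtctaagCATGctg
FAS, intron 1, chr10:90751066-90751085, plus strand: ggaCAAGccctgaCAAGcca
GDF15, -841 bases from the start, chr19:18496118-18496137, plus strand: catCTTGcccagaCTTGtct

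The elements of PLK2 and ZMAT3 had 0 mismatches, that of GADD45A had 1, and those of CDKN1A, FAS and GDF15 had 2. As the values below show, genes with an element on this list stood on both sides of the all-gene median in each comparison, and no binding was measured.

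The first comparison set the control cells of both lines side by side. Most p53 targets were far higher in HeyC2 than in SKOV3. Of the 32 p53 targets with a mean of at least 1 FPKM, 23 (71.9%) were at least 2-fold higher in HeyC2 relative to the all-gene median, against 18.6% of all 12488 genes. A further 3 were at least 2-fold higher in SKOV3 (SFN, GDF15 and TP53I11), against 17.8% of all genes. The median relative log2 ratio of the 32 genes was 1.90, and that of all genes is 0 by construction. SPATA18 and TP53I11 entered through 1 line only. Among the 30 targets with at least 1 FPKM in both controls, 22 (73.3%) were at least 2-fold higher in HeyC2 and 2 (6.67%) lower. The shares of all 10706 such genes were 16.2% and 12.7%. The controls come from separate tables, and each line is 1 library, so a difference between lines cannot be told apart from a difference between cultures.

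**Figure D1:**
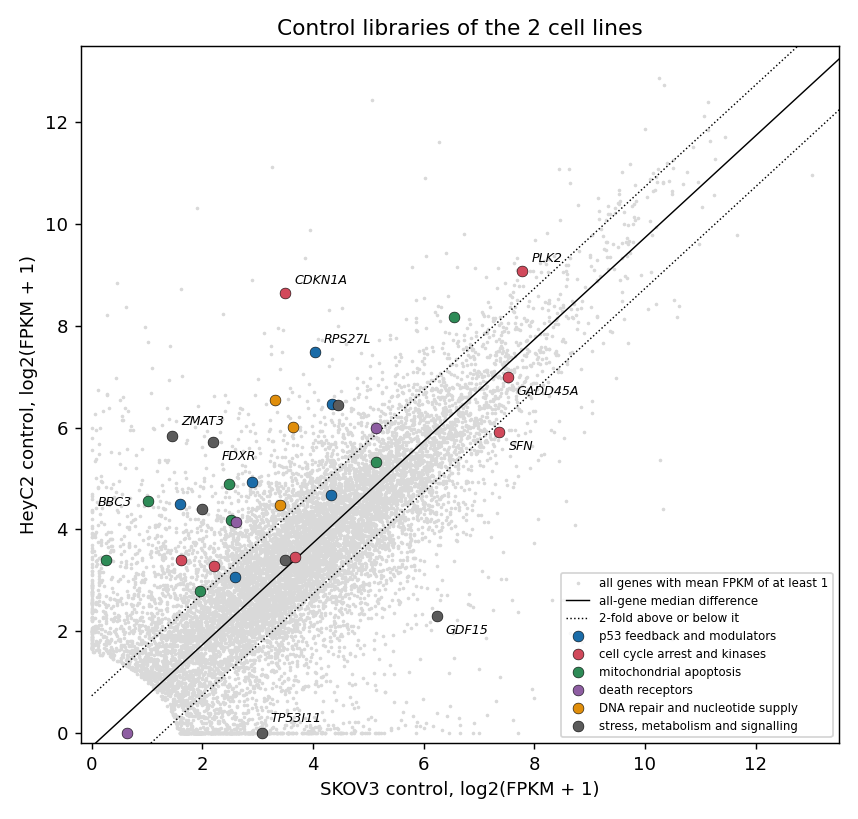
Levels in the SKOV3 control (x axis) and the HeyC2 control (y axis), both as log2(FPKM + 1), for all genes with a mean of at least 1 FPKM (grey) and for the 33 p53 targets by role. The solid line is the all-gene median difference and the dotted lines are 2-fold from it. 23 targets lie above the upper dotted line, with CDKN1A farthest from it, and GDF15, TP53I11 and SFN lie below the lower one.

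CDKN1A (chromosome 6, 36644237 to 36655114), the inhibitor of cyclin-dependent kinases that enforces p53 arrest, differed most. It was at 397 FPKM in the HeyC2 control and 10.3 FPKM in the SKOV3 control, a relative ratio of 42.3-fold. ZMAT3, an RNA-binding protein that acts in p53 tumour suppression, was at 56.2 and 1.73 FPKM, a relative ratio of 25.2-fold. BBC3 (chromosome 19, 47724079 to 47736023, minus strand), which encodes the apoptosis activator PUMA, was at 22.6 and 1.03 FPKM, the latter about 12 estimated fragments.

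The other genes among the 8 widest differences that were higher in HeyC2 were FDXR, RPS27L, RRM2B and SPATA18. FDXR, the ferredoxin reductase of mitochondria, was at 51.5 FPKM in HeyC2 and 3.56 FPKM in SKOV3. RPS27L, a ribosomal protein paralogue that p53 induces, was at 178 and 15.4 FPKM, and with TET1 at 177 and 21.4 FPKM. RRM2B, the p53-inducible small subunit of ribonucleotide reductase, was at 92.4 and 8.88 FPKM. SPATA18, which encodes a protein of mitochondrial quality control, was at 9.52 and 0.20 FPKM, the latter about 6 fragments, and with TET1 at 12.9 and 0.29 FPKM.

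The counts by role stand against 18.6% of all genes at least 2-fold higher in the HeyC2 control and 17.8% lower. By role, all 3 repair genes (XPC, DDB2, RRM2B) and 6 of 7 genes of mitochondrial apoptosis were at least 2-fold higher in HeyC2. In the latter group PERP was the exception at 39.1 and 34.1 FPKM, and SPATA18 was counted through HeyC2 only. At least 2-fold higher were also 4 of 6 feedback genes, among them MDM2 at 29.4 and 6.44 FPKM. TRIAP1, an apoptosis inhibitor, and PPM1D, with relative log2 ratios of 0.62 and 0.75, stayed under 2-fold. Of the 7 arrest genes and kinases 4 were higher and 1, SFN, was lower, and both death receptors with enough signal (FAS and TNFRSF10B) were higher. These groups differed in size but not in the direction of their medians, which lay between 1.33 for arrest and 2.66 for repair.

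GDF15, SFN and TP53I11 were the 3 targets at least 2-fold higher in SKOV3. GDF15 (chromosome 19, 18485541 to 18499986), a secreted stress cytokine that the stress factor ATF4 also induces, was at 3.92 FPKM in the HeyC2 control and 74.5 FPKM in the SKOV3 control, a relative ratio of 12.7-fold in favour of SKOV3. SFN (chromosome 1, 27189640 to 27190947), which encodes the epithelial cell cycle inhibitor stratifin, was at 59.2 and 164 FPKM. TP53I11 was listed at 0 FPKM in both HeyC2 libraries and was at 7.43 FPKM in the SKOV3 control. GADD45A, PLK3 and CYFIP2 lay within 1.2-fold of the all-gene ratio, GADD45A at 127 FPKM in HeyC2 and 183 FPKM in SKOV3.

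**Figure D2:**
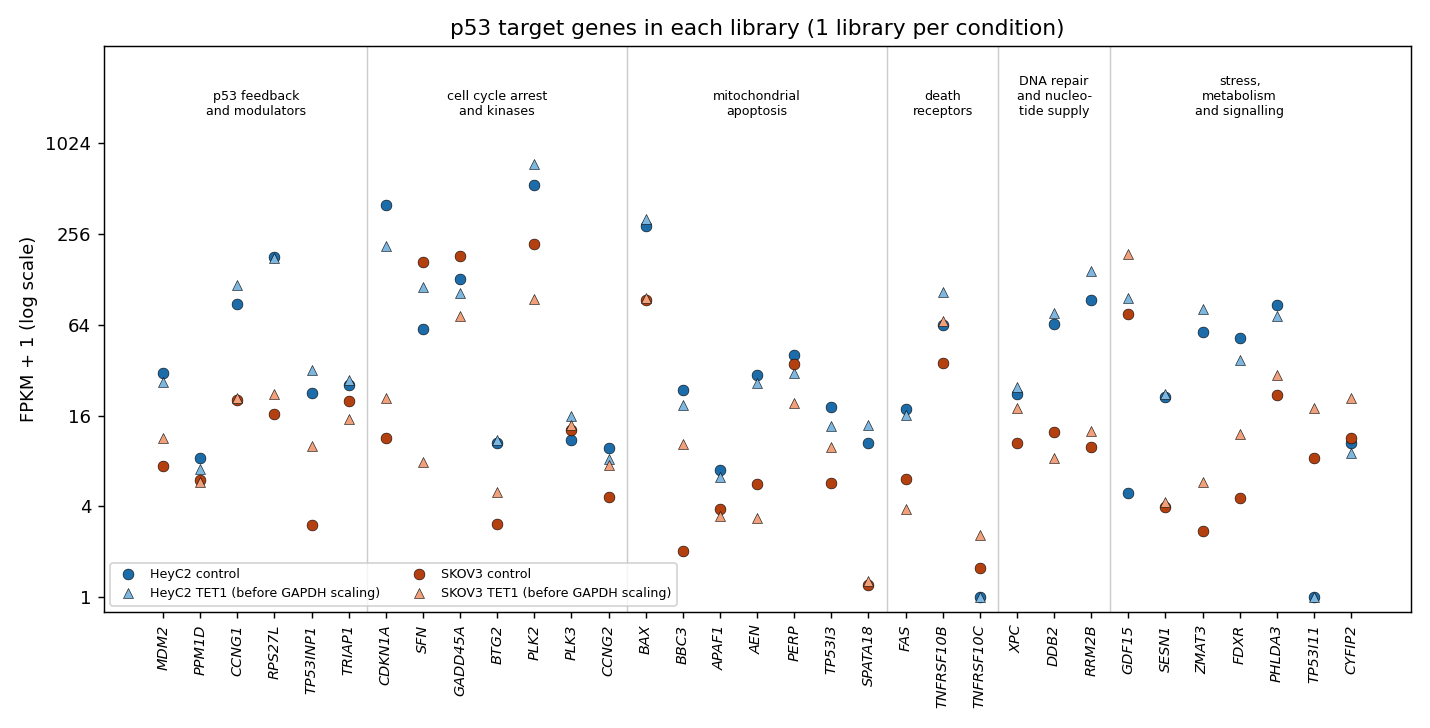
FPKM + 1 on a log scale for each of the 33 p53 targets, grouped by role, in the 4 libraries (circles for control, triangles for TET1 before the GAPDH scaling, blue for HeyC2, orange for SKOV3). Each symbol is 1 library. Blue circles stand above orange circles for most genes, with GDF15, SFN, GADD45A, TP53I11 and CYFIP2 among the genes where they do not.

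The level of p53 targets in HeyC2 was thus not uniform. In the HeyC2 control they ran from 0 FPKM (TNFRSF10C and TP53I11) to 536 FPKM (PLK2), with a median of 24.6, and in the SKOV3 control from 0.20 (SPATA18) to 219 FPKM (PLK2), with a median of 8.88. Expressed genes as a whole, those at 1 FPKM or more, had medians of 10.9 and 11.7 FPKM in the same libraries. PLK2, a polo-like kinase, was the highest of the targets in both controls.

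The next comparison asked how the targets changed with TET1 in HeyC2. Here the median of the p53 targets lay near that of all genes. GDF15 rose steeply and CDKN1A fell relative to other genes, and most others stayed near the all-gene median. Of the 31 targets with a mean of at least 1 FPKM, 4 were at least 1.5-fold above the all-gene median (GDF15, SFN, TNFRSF10B, RRM2B), against 13.0% of all 12993 genes. Only CDKN1A was at least 1.5-fold below it, against 12.9% of all genes. The median relative log2 change was 0.07, and the middle 50% of the targets lay between -0.24 and 0.52. TNFRSF10C and TP53I11, listed at 0 FPKM in both HeyC2 libraries, could not be compared.

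GDF15 went from 3.92 FPKM in the control to 95.01 FPKM in the TET1 library, from about 30 to about 656 estimated fragments. Its relative log2 change was 4.36, and the ratio without pseudocount was 22.9 times the median ratio of all genes (95% exact interval of counting error 15.8 to 34.1). This brought GDF15 in HeyC2 TET1 above its level in the SKOV3 control. The ratios with intervals printed below are likewise without pseudocount and over the median ratio. They are thus another measure than the relative log2 change beside them.

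CDKN1A went from 397 to 212 FPKM, a relative log2 change of -0.82 (ratio 0.50, interval 0.48 to 0.53). On the deposited scale, without subtraction of the median, the same gene had a log2 change of 0.78, since every gene carries the library-wide factor there. CDKN1A in HeyC2 TET1 still stood well above the 10.3 and 19.8 FPKM of the SKOV3 libraries.

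SFN rose from 59.2 to 113 FPKM, a relative log2 change of 0.99 (ratio 1.79, interval 1.61 to 2.01). TNFRSF10B, the death receptor that binds TRAIL, rose from 62.7 to 104 FPKM, a relative log2 change of 0.80 (ratio 1.56, interval 1.47 to 1.66). The lower end of its interval was under 1.5. RRM2B rose from 92.4 to 144 FPKM, with a relative log2 change of 0.71, but before the GAPDH scaling its value was 0.57, under the 1.5-fold limit, and with a pseudocount of 0.01 FPKM it was 0.55. A further 4 targets, TP53INP1, PLK2, PLK3 and ZMAT3, lay between 0.56 and 0.58, just inside that limit.

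The genes that left the limit only in SKOV3, described next, had the following HeyC2 levels. TP53INP1 was at 21.7 FPKM in the control and 31.2 FPKM in the TET1 library, ZMAT3 at 56.2 and 80.4 FPKM, and FDXR at 51.5 and 36.1 FPKM. PLK2 was at 536 and 747 FPKM and GADD45A at 127 and 103 FPKM. These went in different directions, and none was past 1.5-fold. PERP was at 39.1 and 29.8 FPKM, AEN at 28.7 and 25.4 FPKM and TP53I3 at 17.1 and 12.5 FPKM. FAS was at 16.7 and 15.1 FPKM, DDB2 at 63.99 and 75.2 FPKM, and CYFIP2 at 9.51 and 8.07 FPKM. DDB2 alone of these last 6 lay above the all-gene median, with a relative log2 change of 0.30.

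The feedback genes split without passing the limit, from -0.31 for the p53 phosphatase PPM1D to 0.56 for TP53INP1, with MDM2 at 29.4 and 25.5 FPKM. All 7 genes of mitochondrial apoptosis also stayed inside the limit, from -0.41 for TP53I3, which takes part in the generation of reactive oxygen species, to 0.42 for SPATA18. Of all genes, 13.0% were above the limit and 12.9% below it, so most genes stayed inside it. BAX, the pore-forming protein, was at 286 and 321 FPKM, and BBC3 at 22.6 and 17.8 FPKM. APAF1, the scaffold of the apoptosome, was at 5.94 and 5.26 FPKM. BTG2, an antiproliferative gene, was at 9.53 and 10.03 FPKM, and CCNG2, an atypical cyclin, at 8.71 and 7.27 FPKM. The remaining members in HeyC2, which include the DNA damage recognition genes XPC and DDB2, the AKT repressor PHLDA3 and the sestrin SESN1, had relative log2 changes between -0.44 (FDXR) and 0.47 (CCNG1).

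More of the p53 targets left the all-gene median in SKOV3 than in HeyC2, in both directions, and so did more of all genes. BBC3, TP53INP1, FDXR and GDF15 rose most, and SFN, GADD45A and PLK2 fell most. Of the 32 targets with a mean of at least 1 FPKM, 10 were at least 1.5-fold above the all-gene median, against 20.6% of all 13339 genes, and 7 were at least 1.5-fold below it, against 17.9% of all genes. The shares of the targets were 31.3% and 21.9%, the latter near that of all genes. Their median relative log2 change was 0.26, and the middle 50% lay between -0.47 and 0.69. TNFRSF10C, a decoy receptor for TRAIL, entered through its TET1 library, with about 5 and 13 fragments at 0.56 and 1.59 FPKM. SPATA18 was too low to compare, at 0.20 and 0.29 FPKM.

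Among the genes that rose, BBC3 went from 1.03 to 9.33 FPKM, about 12 to 103 fragments. Its relative log2 change was 2.15, and its ratio without pseudocount was 7.74 times the median ratio (interval 4.34 to 15.8). TP53INP1, which promotes p53 phosphorylation and autophagy, went from 2.03 to 9.10 FPKM, with a relative log2 change of 1.54 (ratio 3.83, interval 3.0 to 5.0). Both genes remained below their levels in the HeyC2 libraries.

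FDXR rose from 3.56 to 11.1 FPKM, a relative log2 change of 1.21 (ratio 2.65, interval 1.87 to 3.90). GDF15 rose from 74.5 to 188 FPKM, a relative log2 change of 1.16 (ratio 2.15, interval 1.95 to 2.39). TP53I11, a gene induced in p53-driven apoptosis, rose from 7.43 to 16.8 FPKM, a relative log2 change of 0.90. With GDF15, FDXR and TP53I11, the group of stress, metabolism and signalling genes had the highest median of the 6 role groups in SKOV3, 0.86. Of its 7 genes, 5 were above the limit, against 20.6% of all genes. Each other role group had between 0 and 2 genes above it.

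ZMAT3 went from 1.73 to 4.81 FPKM, with a relative log2 change of 0.86. TNFRSF10B went from 34.4 to 66.2 FPKM, with 0.76. CYFIP2, a regulator of actin that p53 induces, went from 10.3 to 19.8 FPKM, with 0.70. CDKN1A, which fell relative to other genes in HeyC2, rose here from 10.3 to 19.8 FPKM, with a relative log2 change of 0.69 (ratio 1.63, interval 1.32 to 2.02), and TP53I3 rose from 4.75 to 8.93 FPKM, with 0.59. Even so, ZMAT3 and CDKN1A in SKOV3 TET1 stayed below both HeyC2 libraries.

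The genes that fell in SKOV3 were led by SFN, which went from 164 to 6.82 FPKM, a relative log2 change of -4.61 (ratio 0.035, interval 0.026 to 0.047). Its change lay at the 0.022 percentile of all genes tested in SKOV3. The epithelial markers KRT7 and KRT19 moved with it, from 1537 to 22.0 FPKM and from 255 to 0.46 FPKM. Of the 8 epithelial markers listed, 6 in control SKOV3 and 5 after TET1 were at 1 FPKM or more, with summed levels of 2635 and 1200 FPKM, and KRT8, KRT18, EPCAM and PAX8 did not fall. In HeyC2, where SFN rose, KRT7 went from 290 to 1125 FPKM, and the summed level went from 1272 to 2086 FPKM. WT1 was at 0 in 3 of the 4 libraries, and MUC16 was at 0 in both HeyC2 libraries. Among markers of other cell types, COL1A1 and COL1A2 of fibroblasts went from 0.32 to 27.7 FPKM and from 0.13 to 2.12 FPKM in SKOV3, while DCN and PDGFRB were at 0.08 FPKM or less, and the summed level of the 4 went from 0.53 to 29.8 FPKM. In HeyC2 the endothelial cadherin CDH5 went from 18.9 to 94.6 FPKM, while PECAM1 and VWF were at 0.42 FPKM or less, and the sum of the 3 went from 19.4 to 94.8 FPKM. The T cell gene CD3E was at 0 in all 4 libraries, PTPRC was at 0.28 FPKM or less, and the leukocyte list summed to between 12.8 and 90.2 FPKM, nearly all of it CD68. The part of these markers in the change of SFN was not tested, and in bulk cultures fewer cells that express a gene and less RNA per cell cannot be told apart.

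GADD45A, a growth arrest and DNA damage sensor, went from 183 to 71.7 FPKM, a relative log2 change of -1.50 (ratio 0.34, interval 0.30 to 0.37). PLK2 went from 219 to 93.3 FPKM, with -1.39 (ratio 0.36, interval 0.34 to 0.39). The feedback gene CCNG1, a cyclin that recruits a phosphatase to MDM2, did not follow them, at 19.3 and 19.8 FPKM. The other targets inside the limit in SKOV3 had relative log2 changes from -0.58 for TRIAP1 to 0.58 for XPC, with MDM2 at 6.44 and 10.4 FPKM and BAX at 92.6 and 94.7 FPKM. TRIAP1 and XPC lay just inside it. TRIAP1 was past it before the GAPDH scaling, at -0.59, and XPC with a pseudocount of 0.1 FPKM, at 0.59.

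PERP, a desmosome protein with a part in p53 apoptosis, went from 34.1 to 18.2 FPKM, with -1.05. AEN, an apoptosis nuclease, went from 4.59 to 2.34 FPKM, with -1.02. FAS, the receptor for Fas ligand, went from 5.07 to 2.87 FPKM, with -0.91. DDB2, which recognises ultraviolet damage, went from 11.4 to 7.34 FPKM, with -0.78 (ratio 0.55, interval 0.41 to 0.73), and on the TPM scale, without subtraction of the median, its value was -0.55 and inside the limit.

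**Figure D3:**
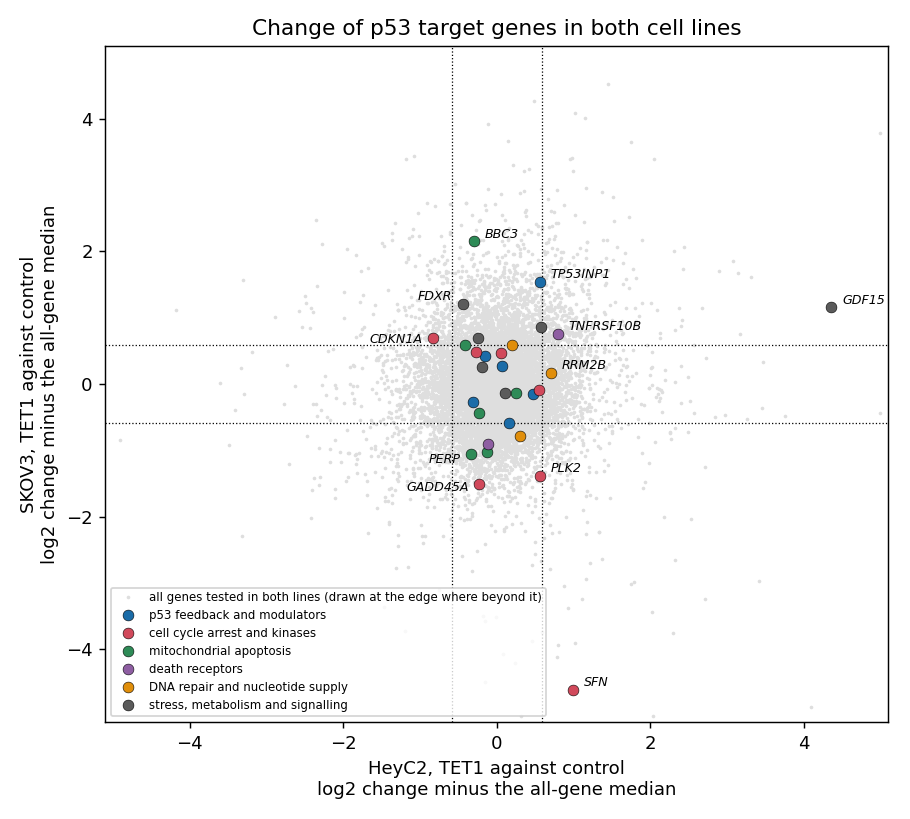
Log2 change with TET1 minus the all-gene median in HeyC2 (x axis) and SKOV3 (y axis), for all genes tested in both lines (grey, drawn at the edge where they lie beyond it) and the 30 p53 targets tested in both (coloured by role). Dotted lines mark 1.5-fold. GDF15 and TNFRSF10B are past the limit upward in both lines, and CDKN1A and SFN are past it in opposite directions.

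Across both lines, 30 targets could be compared in each. GDF15 and TNFRSF10B were past the 1.5-fold limit upward in both, 2 of 30 targets (6.67%) against 3.58% of the 11888 genes compared in both lines. A downward change past the limit in both was found for 0 of the 30, against 2.73% of all genes. SFN was above in HeyC2 and below in SKOV3, as were 2.08% of all genes, and CDKN1A was below in HeyC2 and above in SKOV3, as were 2.31%. These counts of 0 to 2 genes are too small to set the targets apart from all genes. Without regard to the limit, 8 targets were above the median in both lines, 6 below it in both, 8 below in HeyC2 and above in SKOV3, and 8 the reverse. The shares were 26.7%, 20%, 26.7% and 26.7%, near the 25.4%, 27.0%, 22.0% and 25.5% of all genes. The genes that crossed this way with the widest gap apart from SFN were BBC3 (-0.30 in HeyC2 and 2.15 in SKOV3), PLK2 (0.56 and -1.39) and FDXR (-0.44 and 1.21). Whether the change differs between lines was not tested, since each rests on 1 library pair.

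Other genes of the pathway came from lists written with the members known. Of 22 further p53 targets, 21 were measured in the control comparison, where 10 (47.6%) were at least 2-fold higher in HeyC2 and 4 (19.05%) lower, against 18.6% and 17.8% of all genes, with a median of 0.98. With TET1 in HeyC2, 7 of 21 (33.3%) were above the limit and 3 (14.3%) below, against 13.0% and 12.9% of all genes, with a median of 0.30. In SKOV3 4 of 20 (20%) were above and 5 (25%) below, against 20.6% and 17.9%, with a median of 0.25. SESN2, a sestrin that ATF4 also induces, chosen after its values were seen, fell in HeyC2 and rose in SKOV3 relative to other genes, at 17.1 and 9.78 FPKM in HeyC2 and 3.78 and 18.5 FPKM in SKOV3. In the control comparison 15 of the 21 lay above the all-gene median.

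A list of 23 upstream regulators of p53, such as the kinases ATM and CHEK2 and the acetyltransferase EP300, was read in the same way. Of 20 measured, 3 (15%) were at least 2-fold higher and 3 (15%) lower in the HeyC2 control, against 18.6% and 17.8% of all genes, with a median of -0.23. MDM4, an inhibitor of p53, was at 2.7 and 4.2 FPKM in HeyC2 and at 1.7 and 6.2 FPKM in SKOV3. TP63 and TP73, which encode paralogues of p53, were at 0.62 FPKM or less in every library, and CDKN2A, whose ARF product restrains MDM2, was listed at 0 FPKM in all 4. With TET1 in HeyC2, 1 of 20 regulators (5%) was above the limit and 1 (5%) below, against 13.0% and 12.9% of all genes. In SKOV3 2 of 20 (10%) were above and 6 (30%) below, against 20.6% and 17.9%.

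**Figure D4:**
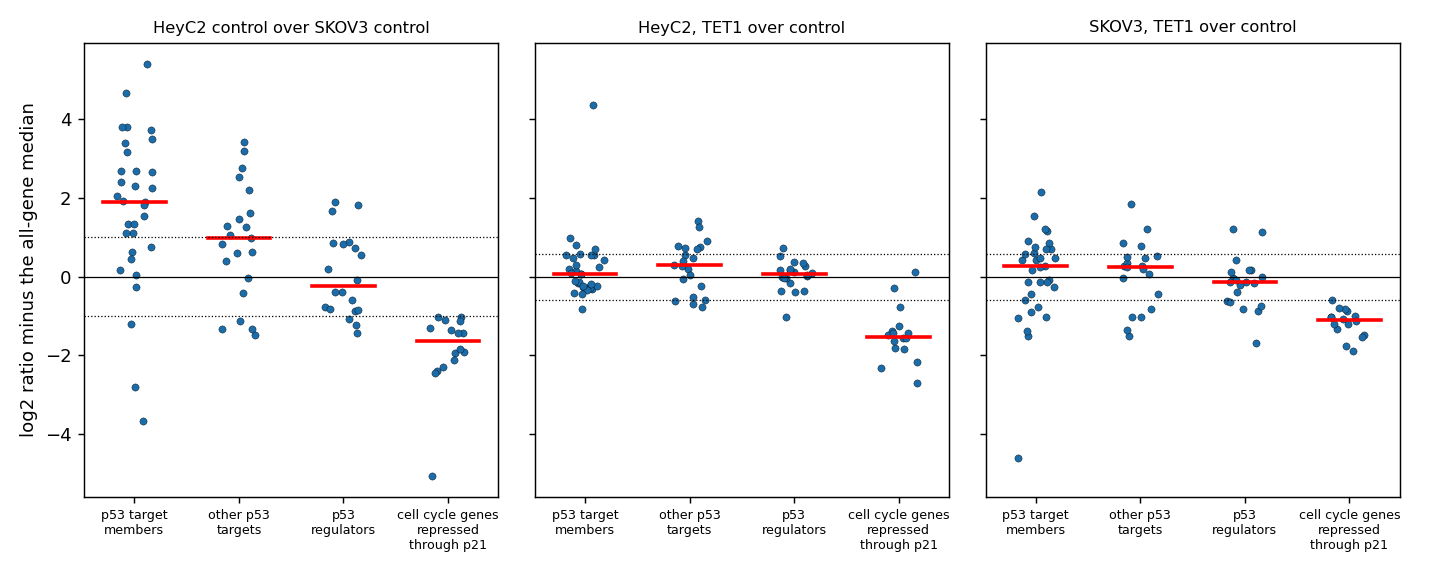
Log2 ratio minus the all-gene median for the p53 target members, other p53 targets, p53 regulators and cell cycle genes that p53 represses through p21, in the control lines (left), HeyC2 TET1 against control (middle) and SKOV3 TET1 against control (right). Each point is 1 gene, red bars are medians, and dotted lines mark 2-fold (left) and 1.5-fold (middle and right). The median of the members is 1.90 in the left panel and 0.07 and 0.26 in the others.

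Strand is not stated for the libraries, so reads from overlapping genes on opposite strands may be mixed. Exons of 13 of the 33 targets overlap an exon of an opposite-strand gene in GENCODE, and for 9 that gene is in the tables. Reads of such a pair cannot be told apart without strand. FAS shares 380 exon bases with ACTA2, at 39.2 FPKM in the HeyC2 control and 1.33 FPKM in the SKOV3 control. CYFIP2 shares 62 with ADAM19, which was at 64.3 FPKM in the HeyC2 control and 96.6 FPKM in HeyC2 TET1. In SKOV3, ADAM19 was at 0.64 FPKM in the control and 6.51 FPKM in the TET1 library.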

How the data were processed

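RNA was sequenced by the authors as paired-end TruSeq libraries on 4 samples. Per the labels, reads were aligned to hg19 with Bowtie2 2.2.6 and quantified with RSEM 1.2.17. The deposited values are FPKM, in 1 table per cell line. The annotation is not given in the sources used here. The factor on each TET1 library was recovered from the spacing of values below 40 FPKM. Samples were grouped by title.

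Log2 changes used a pseudocount of 1 FPKM, a mean of at least 1 FPKM and the all-gene median as zero. A gene counted as past the limit at 1.5-fold between TET1 and control and at 2-fold between control lines. Since the pseudocount is added after the factor, low genes read too low in the TET1 comparisons, more so in HeyC2, where the factor is larger. In HeyC2, 12.9% of all genes were at least 1.5-fold below the median, against 9.17% of the 11894 genes tested before the scaling. In HeyC2 the targets past the limit read slightly too high relative to the median. Before the scaling GDF15 was at 4.23, SFN at 0.86, TNFRSF10B at 0.66, RRM2B at 0.57 and CDKN1A at -0.96. The values before the scaling are given as an alternative. Fragments were estimated from the depth at which low FPKM of single-transcript genes fall on whole fragments and from the length of the canonical transcript less 170 bases. Intervals are 95% Clopper-Pearson intervals on these fragments and cover counting error only. Elements came from GRCh37 and GENCODE release 44 lifted to it, which matched 22638 of 26506 symbols and all 33 members.

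All members are named, in full where past the limit with TET1 or among the 8 largest differences between control lines. A gene of the regulator list and a gene of the leukocyte list are not reported here and were left out of these lists. Members and lists were chosen with earlier results of these data known. The calculations were tested on simulated data. Alternatives were pseudocounts of 0.1 and 0.01 FPKM, no filter, a mean of at least 5 FPKM, other fold limits, no centring, upper-quartile scaling, TPM and values before the GAPDH scaling. A limit of 1 FPKM in both libraries was added after seeing the data. Python 3.11.15, numpy 2.4.6, pandas 2.3.3, scipy 1.17.1 and matplotlib 3.10.9 were used.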

Additional observations from a re-analysis of the deposited data

Results flagged for a closer look

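A pair of p53 targets was past the 1.5-fold limit in opposite directions in the cell lines. CDKN1A had a relative log2 change of -0.82 in HeyC2 and 0.69 in SKOV3. SFN had 0.99 in HeyC2 and -4.61 in SKOV3. Each value rests on 1 library per condition, and the difference between lines was not tested.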

How the results depend on the processing

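No paired analysis was possible because each condition has 1 library and the labels carry no replicate numbers, and for the same reason no library could be left out. Values before the GAPDH scaling, centred on their own median, moved none of the medians and counts of the targets past the limits set here. These limits were 0.2 on the log2 scale and 1.5 times for a count. Within them, 3 targets were above in HeyC2 and 8 below in SKOV3 before the scaling, against 12.5% and 18.2% of all genes. The SKOV3 count above was 14 with a pseudocount of 0.1 or 0.01 FPKM, against 25.4% of all genes for the latter. It was 13 without a filter and 15 with upper-quartile scaling or TPM, against 20.3%, 27.6% and 34.6%. It stayed at 10 before the scaling, with a mean of at least 5 FPKM and with 1 FPKM in both libraries. These were 10 of 32, 25 and 31 targets, against 20.7%, 19.3% and 16.5% of all genes. Under the deposited values without centring, which keep the library-wide factor, CDKN1A in HeyC2 reversed to 0.78, and 31 targets were above and 0 below in HeyC2, against 95.8% and 0.5% of all genes, with 18 above and 3 below in SKOV3, against 50.2% and 4.39%. The medians were then 1.64 between controls, 1.68 in HeyC2 and 0.85 in SKOV3. For feedback, arrest, mitochondrial apoptosis, death receptors, repair and stress genes they were 1.72, 1.67, 1.38, 1.95, 1.91 and 1.57 in HeyC2, and 0.65, 0.51, 0.31, 1.01, 0.75 and 1.45 in SKOV3. On the TPM scale, not centred, the controls gave 1.66 and SKOV3 0.50, with 0.30, 0.16, -0.027, 0.99, 0.42 and 1.18 for the same groups in SKOV3. With a mean of at least 5 FPKM the SKOV3 medians were -0.67 for arrest, 0.82 for death receptors and 0.29 for mitochondrial apoptosis. The SKOV3 death receptor median was 0.72 and 0.71 with pseudocounts of 0.1 and 0.01 FPKM, 0.72 with upper-quartile scaling, and -0.075 with 1 FPKM in both libraries, where TNFRSF10C is left out. The first 3 of these gave 2 targets below in HeyC2, FDXR being the addition, against 12.6%, 12.7% and 9.89% of all genes. Without a filter 9 were above in HeyC2, against 14.6% of all genes. A 4-fold limit left 15 targets higher in the HeyC2 control, against 6.84% of all genes. A 2-fold limit gave 1 above and 0 below in HeyC2 and 4 above in SKOV3, against 4.12%, 4.63% and 9.96% of all genes, and a 1.2-fold limit gave 11, 7 and 16, against 28.7%, 28.6% and 34.8%. Other causes were not tested. Genes near 1 FPKM rest on few fragments, as for TNFRSF10C (5 and 13) and BBC3 (12 in the SKOV3 control).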

Other observations

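Cell cycle genes that p53 represses through p21 and the DREAM complex were read beside CDKN1A, from a list of 16 genes. In the control comparison all 16 were at least 2-fold lower in HeyC2 than in SKOV3 relative to all genes, against 17.8% of all genes, with a median of -1.64, while CDKN1A was higher in HeyC2. The genes named here were chosen after their values were seen. MYBL2, a cell cycle transcription factor, showed the widest gap, with 4.17 FPKM in HeyC2 and 207 FPKM in SKOV3. The mitotic cyclin gene CCNB1 was at 49.2 and 154 FPKM, and the proliferation marker MKI67 at 12.01 and 75.6 FPKM.

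With TET1, 14 of these 16 genes were at least 1.5-fold below the all-gene median in HeyC2, against 12.9% of all genes (median -1.52), with CHEK1 at 0.12 and MYBL2 at -0.29 as the others, and all 16 were at least 1.5-fold below it in SKOV3, against 17.9% of all genes (median -1.10). MKI67 went from 12.01 to 2.16 FPKM in HeyC2 and from 75.6 to 29.1 FPKM in SKOV3. The list thus lay below the median in both lines, whereas CDKN1A fell relative to other genes in HeyC2 and rose in SKOV3. The relation between the list and CDKN1A was not tested.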
